A study of Mus musculus with 7 samples.

Results

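This is an account of neutrophils that had entered the airspaces of the lung after IL-1β, set beside neutrophils of healthy blood. The members were the cells of 1 hashtag-multiplexed 10X library whose condition in the authors' table of cells was IL1_lung or unstim_blood and whose class, assigned against ImmGen references, began with GN. They numbered 889 of the 4856 cells of that library, which held 5 conditions, and of the 21763 cells of the series. Of the lung condition 380 of 381 cells were members, and of healthy blood all 509. IL-1β had been given into the nose of male wild-type C57BL/6J mice aged 8 weeks, at 25 ng in 30 µL of PBS. By the study's methods these mice were anaesthetised with ketamine and xylazine. The airspaces were washed with cold PBS after 3 hours. Healthy blood came from untreated male C57BL/6J mice, for which the labels give no age. The remaining conditions, used below only as reference levels, were peritoneal cells 3 hours after 25 ng of IL-1β in 200 µL of PBS into the peritoneum (292 neutrophils), and the blood (814) and joint (2857) of mice on day 7 of arthritis raised with 150 µL of K/BxN serum on day 0 and again on day 2. The mice of these conditions were also male and wild-type, and aged 8 weeks when treated. Cells of all conditions had been sorted as live CD11b+ Ly6G+ neutrophils, and by the study's methods each condition was 1 pool of 3 mice. The spread between mice could therefore not be measured, no difference was tested, and ratios are given with 95% intervals that cover counting error only.

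Neutrophils leave the blood through the walls of small vessels and reach an inflamed site within hours. IL-1β is a cytokine that acts through a receptor coupled to MyD88 and NF-κB, a family of transcription factors whose targets include chemokines, their own inhibitors and survival genes. Resident cells of the lung answer IL-1β by releasing chemokines that draw neutrophils into the airspaces. There the cells meet further cytokines and dying cells and alter their own transcripts.

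The identity of the cells was checked first. All 15 neutrophil markers had UMIs in both conditions. S100a9, an alarmin subunit and the most abundant transcript of the lung, took 9.39% of its UMIs and 7.26% of those of blood. The transcript of the airway club cell product Scgb1a1 had 88 UMIs in the lung condition, found in 17 of its 380 cells, against 0 in healthy blood, 0 in the peritoneum, 1 in arthritic blood and 2 in the joint. The study's text and the table of cells put the lung and peritoneal conditions in opposite order of cell number, and the names in the table were used here. Over the 13 markers of airway or alveolar epithelium the lung held 105 UMIs and blood 24, all of the latter from Ager, and Sftpb, Sftpd, Epcam, Krt8, Krt18 and Foxj1 were at 0 in the lung. Of the alveolar macrophage markers Marco and Ear1 had no UMI and Mrc1, Fabp4 and Ear2 had 1 each in the lung, while Ccl6, which neutrophils also make, gave 5866 of the list's 6016 UMIs. Chil3, also a gene of neutrophil granules, had 51 UMIs in the lung against 12 in blood, a lung to blood ratio, scaled as set out below, of 6.76 (3.55 to 13.9, a counting interval), but of 0.0974 and 0.369 against the healthy blood of the other runs 1 and 2. Plet1 had 9 against 1 UMIs, a ratio of 14.3 (1.98 to 627). Monocyte or macrophage markers held 391 UMIs in the lung and 318 in blood, with Ccr2, C1qa, C1qb and C1qc at 0 in the lung. Of that list Ly6c2 had 257 UMIs against 75, a ratio of 5.45 (4.20 to 7.15), but of 0.604 and 1.52 against runs 1 and 2. The MHC class II chains H2-Aa and H2-Ab1 had 45 and 23 UMIs in the lung against 1 and 0 in blood, but the dendritic cell markers Flt3, Xcr1, Ccr7 and Cd209a were at 0 in the lung. B cell markers were lower in the lung, at 30 UMIs against 236, of which Ighm gave 26 and 234. The part of these cells or of free RNA in the ratios below was not tested, except that leaving out every lung and blood cell with a secretoglobin UMI gave 931 genes higher and 492 lower by the rule below, against 928 and 475.

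The lung neutrophils summed to 1321078 UMIs and healthy blood to 1124877. The median lung cell held 3681 UMIs and 1019 genes and the median blood cell 2527 UMIs and 1077 genes. With every cell thinned to 1000 UMIs, the median was 423 genes in 286 lung cells and 545 genes in 354 blood cells, so that a lung cell spread the same number of molecules over fewer genes. The 10 most abundant genes took 33.0% of UMIs in the lung and 25.6% in blood, and the 100 most abundant took 56.9% and 44.3%.

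The authors' ImmGen classes were nearly separate between the conditions. In the lung 275 of 380 cells, or 72.4% (exact binomial 95% interval 67.6 to 76.8%), were closest to GN.Arth.SynF, neutrophils of arthritic synovial fluid, and in blood 1 of 509. The class GN.Bl, blood neutrophils, held 353 blood cells or 69.4% (65.1 to 73.3%) and 13 lung cells or 3.42% (1.83 to 5.78%). Of the classes of exudate neutrophils of the peritoneal cavity, GN.Thio.PC held 74 lung cells (19.5%) and 2 blood cells, and GN.UrAc.PC 16 lung cells and 149 blood cells (29.3%). These last cells were shallow, with a median of 676 UMIs for GN.Thio.PC in the lung, 586 for GN.UrAc.PC in the lung and 590 for GN.UrAc.PC in blood, against 4213 for GN.Arth.SynF in the lung and 2854 for GN.Bl in blood.

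Levels are given as CPM, a gene's UMIs in a condition set to a common library total, after scaling by TMM, a factor that makes the bulk of genes level between conditions. Of 11055 genes with a UMI in lung or blood, 3352 had a mean of at least 25 CPM over both conditions and were counted. Of these, 928 were at least 2-fold higher in the lung, a background of 27.7%, and 475 at least 2-fold lower, a background of 14.2%. The interval of every one of these 1403 ratios (41.9%) lay on 1 side of 1. On the TMM scale the differences were one-sided in size as well, with 453 genes at least 4-fold higher and 114 at least 4-fold lower, and 185 and 12 at 10-fold. These 4-fold and 10-fold counts were not made on another scale. By the same rule arthritic blood differed from healthy blood in 117 genes upward and 27 downward, or 4.30% of the genes counted. The scale mattered for how many genes lay on each side. TMM raised lung to blood ratios by 0.90 on the log2 scale over plain CPM. On the plain scale 3615 genes, a different set, passed the minimum of 25 CPM, and of these 449 were higher and 1575 lower. Of the 3352 genes counted on the TMM scale, 476 were higher and 475 lower under TMM, plain scaling and UMIs per cell alike, or 14.2% each. TMM also raised lung ratios over UMIs per cell, by 0.25 on the log2 scale. A gene lower under TMM was therefore lower under all 3 by construction. Counts of lower genes under all 3 scalings, here and below, are thus no check on those genes. Differences below are on the TMM scale unless stated. Counts of higher genes in the lists below were smaller under all 3 scalings for several lists, at 3 of 5 for Toll-like receptors, 6 of 9 for immediate early factors, 2 of 4 for KLF and NR4A factors, 3 of 6 for secreted cytokines, 5 of 8 for growth factor and cytokine receptors, 3 of 7 for adhesion genes, 2 of 5 for Fc receptors, 5 of 8 for lectin-like receptors and 4 of 7 for glucocorticoid-responsive and clock genes. No gene of the S100, NADPH oxidase or mitochondria-encoded respiratory lists was higher under all 3.

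**Figure D1:**
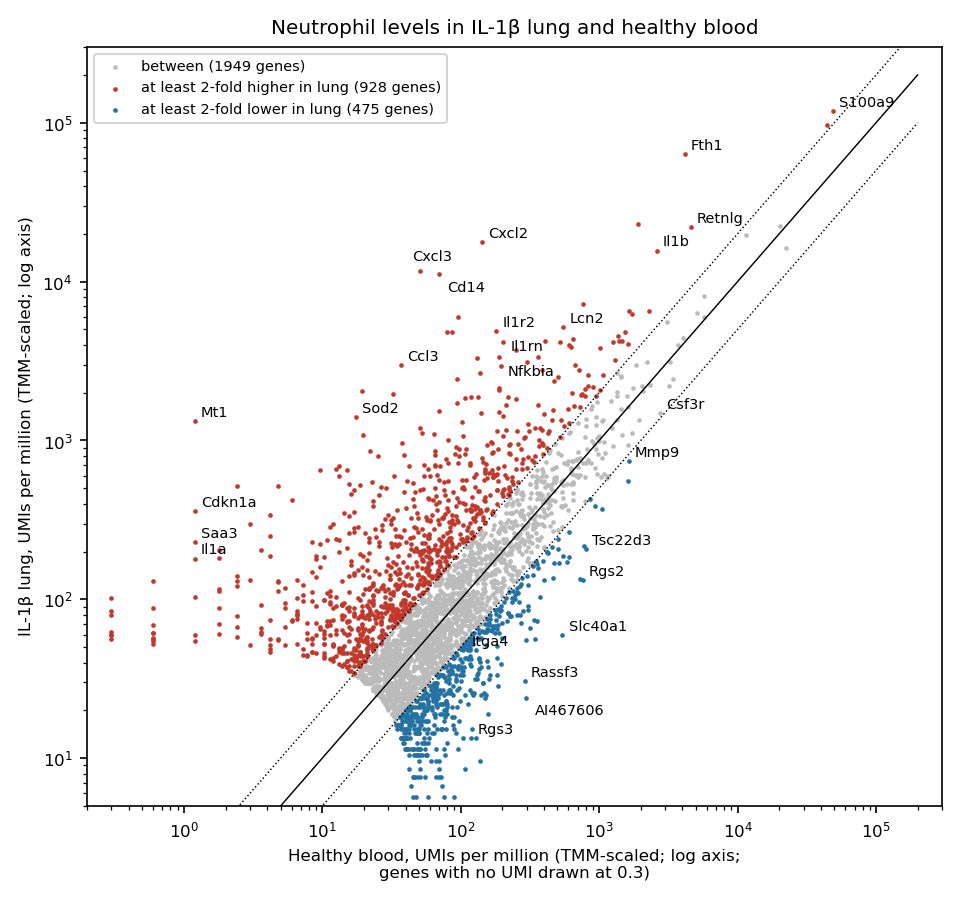
Levels of the 3352 genes counted in healthy blood (x axis) and IL-1β lung neutrophils (y axis), in TMM-scaled CPM on log axes, with 1 point per gene. The 928 genes in red lay at least 2-fold above the diagonal and the 475 in blue at least 2-fold below it, and Cxcl2, Cxcl3, Cd14 and Fth1 combined a large ratio with a level of 11223 CPM or more in the lung.

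Chemokines formed the list with the highest median. Of 15 genes 8 were counted, and 7 were at least 2-fold higher in the lung and none lower, with a median log2 ratio of at least 5.50, since Cxcl1, at 0 in blood, stood in it at its lower bound, against 0.19 over all genes counted. Together they took 3.51% of lung UMIs and 0.506% of those of blood. Cxcl2, a ligand of the neutrophil receptor CXCR2, stood at 142 CPM in healthy blood and 17807 in the lung, a ratio of 126 (111 to 143). Cxcl3, of the same gene cluster, went from 51.0 to 11677, a ratio of 229 (185 to 287). Cxcl1, another CXCR2 ligand, had 62 UMIs in the lung and none in blood, at least 32.9-fold higher against a floor of 3 counts. For Ccl3, a ligand of CCR1, the values were 37.2 CPM in healthy blood and 2966 in the lung, a ratio of 79.7 (62.0 to 104), and for Ccl4 they were 94.9 CPM in healthy blood and 5952 in the lung, a ratio of 62.7 (53.6 to 73.9). Cxcl10, an interferon-inducible ligand of CXCR3, differed 16.4-fold and Ccl9 7.18-fold, whereas Ccl6, the most abundant chemokine of blood at 3069, reached 5602 in the lung, a ratio of 1.83 (1.76 to 1.90) that did not reach 2-fold and was 0.908 against the blood of run 2. No UMI of Cxcl5, Cxcl9, Ccl7 or Ccl22 was seen in either condition.

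Cxcl2 and Cxcl3 were found in most lung cells. With cells thinned to 1000 UMIs, Cxcl2 was seen in 250 of 286 lung cells (87.4%) and 54 of 354 blood cells (15.3%), and unthinned in 93.7% and 35.6%. Cxcl3 was seen in 78.0% and 5.08% of thinned cells, and Ccl3 in 48.6% and 4.80%. Nearly all cells of this library were neutrophils, so that no cell type lacking these genes could serve as a background, and the shares in blood are the closest to one. The level of Cxcl2 in healthy blood itself depended on the library. It was 142 CPM in the blood that shared its droplets with the lung, peritoneum and joint cells, and 13.2 in the neutrophil-like cells of a separate healthy blood library (run 2), where Cxcl3 stood at 0.322 and Ccl3 at 1.61. Within the shared library, Cxcl2 was at 508 CPM unscaled in the shallow GN.UrAc.PC cells of blood and 159 in its GN.Bl cells. The part of free RNA in the blood values was not tested.

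The promoters of these genes are shown because 2 of the highest ratios belonged to genes of 1 cluster and because the inhibitors of NF-κB, described below, were high as well. Each sequence is the 150 bases before the RefSeq start site on the gene's own strand, in GRCm38.p6, and capitals mark matches to the NF-κB letters GGG and TTCC spaced by any 3 bases, on either strand. Overlapping matches run together. The stretches are chr5:90903749-90903898 (+) for Cxcl2, chr5:90785951-90786100 (+) for Cxcl3, chr12:55492648-55492797 (-) for Nfkbia, chr10:19015411-19015560 (-) for Tnfaip3 and chr1:144004150-144004299 (-) for Rgs2, a gene that was lower in the lung.
Cxcl2: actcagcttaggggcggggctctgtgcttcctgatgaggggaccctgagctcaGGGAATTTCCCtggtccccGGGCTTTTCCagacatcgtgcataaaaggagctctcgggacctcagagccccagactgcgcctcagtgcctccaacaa
Cxcl3: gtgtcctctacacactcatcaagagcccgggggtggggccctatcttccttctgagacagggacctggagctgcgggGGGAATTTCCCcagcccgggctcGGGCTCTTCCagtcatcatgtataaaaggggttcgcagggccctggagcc
Nfkbia: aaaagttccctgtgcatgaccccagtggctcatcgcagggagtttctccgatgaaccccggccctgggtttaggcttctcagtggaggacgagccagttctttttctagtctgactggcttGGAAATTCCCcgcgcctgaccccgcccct
Tnfaip3: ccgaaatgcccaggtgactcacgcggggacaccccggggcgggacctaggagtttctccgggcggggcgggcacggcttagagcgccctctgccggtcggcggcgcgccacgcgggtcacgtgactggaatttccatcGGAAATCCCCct
Rgs2: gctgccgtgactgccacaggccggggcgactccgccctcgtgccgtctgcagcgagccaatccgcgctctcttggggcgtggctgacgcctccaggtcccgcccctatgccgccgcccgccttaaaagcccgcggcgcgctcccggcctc

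Cxcl2 and Cxcl3 had start sites 117.8 kb apart. Both held a run read as 2 overlapping matches, 1 on each strand, beginning 97 and 96 bases before the start site in Cxcl2 and 73 and 72 in Cxcl3, and a further match beginning at 78 and 50 bases. Nfkbia had 1 match, 29 bases before its start, and Tnfaip3 had 1 beginning at 12 bases and another beyond the start site. The stretches of Ccl3 and Rgs2 held none of these letters, nor did the promoters listed for Sod2, Cish, Cdkn1a and Il1b, all higher in the lung. Over windows from 250 bases before to 50 after the start, 6.31% of the 27025 genes with a promoter listed held the motif in at least 1 promoter. Promoters were listed for 2721 of the 3352 genes counted (81.2%), and the motif was in 10.2% of those at least 2-fold higher in the lung, 7.73% of those lower and 7.82% of those between. The AP-1 letters TGANTCA were in 9.72%, 5.07% and 6.75%, and the C/EBP letters TTGCNNAA in 11.0%, 15.7% and 10.3%, against 8.97% and 12.2% of all genes with a promoter listed. These are descriptions of letters near start sites and were not tested.

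Of 10 counted receptors for chemoattractants 7 were at least 2-fold higher in the lung and none lower, and 4 were higher under all 3 scalings. The largest ratio was that of Ccrl2, an atypical receptor that binds chemerin, at 15 CPM in healthy blood and 649 in the lung, a ratio of 43.3 (29.0 to 67.3). The formyl peptide receptors Fpr1 and Fpr2 differed 8.07 (6.88 to 9.52) and 6.07 (5.29 to 7.00) times, and Ccr1 went from 629 to 3878. Cxcr2 stood at 1343 in blood and 2660.4 in the lung, a ratio of 1.98 (1.87 to 2.1) just short of 2-fold and equal to 1.06 without TMM. Cxcr4, the receptor that holds neutrophils in the bone marrow, was at 701 in blood and 684 in the lung (ratio 0.976, interval 0.888 to 1.07), and at 2.39 and 1.77 times the healthy blood of runs 1 and 2.

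All 9 counted genes of the IL-1 family were at least 2-fold higher in the lung, under all 3 scalings, with a median log2 ratio of 2.93. Among ligands, Il1b was abundant in both conditions, at 2613 CPM in healthy blood and 15666 in the lung, a ratio of 5.99 (5.80 to 6.20), and Il1a had 189 UMIs in the lung against 2 in blood, a ratio of 150.3 (41.0 to 1249.9). Both inhibitors of the pathway had larger ratios than Il1b. Il1rn, which encodes the receptor antagonist, stood at 201 CPM in healthy blood and 4139.6 in the lung, a ratio of 20.6 (18.5 to 23.1), and Il1r2, the decoy receptor that binds IL-1 without a signal, at 181 CPM in healthy blood and 4859 in the lung, a ratio of 26.9 (23.9 to 30.3). Il18bp, a soluble decoy for IL-18, differed 18.3-fold (7.99 to 51.5). The receptor accessory chain Il1rap was at 107 in blood and 820.3 in the lung. The signalling receptor Il1r1 had no UMI in any of 380 lung or 509 blood neutrophils; the exact binomial 95% upper bound was 0.966% of lung cells with a UMI, which is no limit on cells that express the gene. In cells thinned to 1000 UMIs, Il1rn was seen in 84.3% of lung and 24.9% of blood cells and Il1r2 in 89.2% and 23.2%, and Il1b in 96.2% and 87.0%.

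Sensors of microbial products were led by Cd14. Cd14, the co-receptor that presents lipopolysaccharide to TLR4, was among the most abundant transcripts of the lung, at 69.7 CPM in healthy blood and 11223 in the lung, a ratio of 161 (134 to 195), and was seen in 277 of 286 thinned lung cells against 25 of 354 blood cells. Tlr2 stood at 52.8 CPM in healthy blood and 1114 in the lung, a ratio of 21.1 (17.0 to 26.5) and Tlr4 at 25.8 in blood and 216 in the lung. Ly96, the extracellular partner of TLR4, had a ratio of 1.15 (0.717 to 1.83). Of the 12 genes 6 were counted and 5 were at least 2-fold higher. Of 10 counted genes of IL-1 and Toll-like receptor signalling 4 were at least 2-fold higher, namely Traf6 (20.9), Irak2 (10.1), the kinase Map3k8 (10.1) and Irak3, a brake on the pathway (7.34), while the adaptor Myd88 was at 138 in blood and 265 in the lung (ratio 1.92, interval 1.60 to 2.29).

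NF-κB subunits and inhibitors were higher almost throughout, with 11 of 12 counted genes at least 2-fold higher and 8 of them under all 3 scalings. Nfkbia, which encodes IκBα, the inhibitor that NF-κB itself induces, stood at 189 CPM in healthy blood and 3351 in the lung, a ratio of 17.7 (15.8 to 19.9). The precursor subunits Nfkb1 and Nfkb2 differed 13.7 (10.6 to 17.9) and 19.8 (11.7 to 36.1) times, Relb 10.7 times and Rela 3.00 times, and the inhibitor Nfkbie 17.1 times. Of the genes that end NF-κB signalling or edit ubiquitin, 8 of 10 were at least 2-fold higher. Tnfaip3, which encodes the ubiquitin-editing enzyme A20, went from 16.8 to 486, a ratio of 28.9 (19.8 to 43.9). Traf1, an adaptor of TNF receptors, went from 3.00 to 299.8 (99.9, interval 42.3 to 309.7), the ubiquitin ligase Birc3 differed 7.27-fold and the ribonuclease Zc3h12a, which degrades cytokine mRNA, 8.29-fold.

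Immediate early factors had 9 of 13 counted genes at least 2-fold higher and none lower. Ier3, which limits cell death, stood at 86.5 CPM in healthy blood and 4815 in the lung, a ratio of 55.7 (47.2 to 66.2), Egr1 at 19.8 CPM in healthy blood and 1078 in the lung, a ratio of 54.4 (38.5 to 79.4) and Maff at 4.20 in blood and 188 in the lung. Fos, by contrast, was at 277 in blood and 476 in the lung (1.72, interval 1.51 to 1.95), and the 10 genes known for their response to tissue handling summed to 6261 in the lung and 1653 in blood, of which Junb was the largest part at 3836 and 1009. Hspa1a and Hspa1b had 1 and 0 UMIs in the lung. Of 8 counted KLF and NR4A factors 4 were higher and none lower. Nr4a3 differed 54.1-fold (20.6 to 201) with 4 UMIs in blood, Klf7 5.11-fold, Nr4a1 2.15-fold and Klf10 2.20-fold, though Klf10 turned to 0.818 against the healthy blood of run 1. Klf2, a factor of quiescence, was at 961 in blood and 616 in the lung (0.641, interval 0.584 to 0.703).

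Of 17 genes of secreted cytokines other than IL-1, 7 were counted and 6 of these were at least 2-fold higher. Osm, a cytokine of the IL-6 family, stood at 22.2 CPM in healthy blood and 864 in the lung, a ratio of 38.9 (28.0 to 55.6), and Tnf at 7.21 CPM in healthy blood and 106 in the lung, a ratio of 14.7 (8.09 to 29.3). Hbegf, an EGF receptor ligand, had 65 UMIs in the lung and none in blood, at least 34.5-fold higher against the floor of 3 counts. Receptors for growth factors and cytokines differed less, with 8 of 18 higher, none lower and a median log2 ratio of 0.92. Csf2rb, the common β chain for GM-CSF, IL-3 and IL-5, was at 183 in blood and 1139 in the lung (6.24-fold), Il4ra differed 9.92-fold and Il10ra 10.6-fold. Csf3r, the G-CSF receptor that sustains neutrophils, was lower in value but within 2-fold on the TMM scale, at 2740.1 in blood and 1488 in the lung (0.543, interval 0.512 to 0.575). Its ratio was 0.291 on the plain scale and 0.457 by UMIs per cell, past 2-fold on both. Against the blood of run 1 its ratio was 1.16 and against that of run 2 it was 0.790. Feedback inhibitors of JAK and STAT signalling had some of the larger ratios of all. Cish stood at 4.80 CPM in healthy blood and 516 in the lung, a ratio of 107 (54.1 to 249.9), and Socs3 at 118 CPM in healthy blood and 1887 in the lung, a ratio of 16.0 (13.8 to 18.6). Jak2, a kinase of the same list and not an inhibitor, differed 10.1-fold. In that list 6 of 10 genes were higher and 1, Stat5b, was lower. Of the dual-specificity phosphatases, which switch off MAP kinases, 4 of 6 were higher, with Dusp16 at 24.0 (17.3 to 34.2) and the abundant Dusp1 at 1537 in blood and 4818 in the lung (3.13-fold).

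Of 14 counted genes for iron storage, metal binding and antioxidant defence 8 were at least 2-fold higher and 2 lower. Mt1, a metallothionein that binds zinc and copper, had the highest ratio of all genes over a mean of 100 CPM, with 1390 UMIs in the lung against 2 in blood, or 1327 and 1.2 CPM, a ratio of 1105 (305 to 9135) whose width reflects the 2 counts. Mt2 had 59 UMIs in the lung and none in blood (at least 31.3-fold). Mt1 was not spread over all lung cells, since it was seen in 69 of 286 at 1000 UMIs (24.1%) and in 99 of 380 unthinned. The ferritin heavy chain Fth1, which stores iron, took 5.04% of lung UMIs against 0.616% of those of blood, or 63538 and 4162 CPM (15.3, interval 14.9 to 15.7), whereas the light chain Ftl1 was at 4040.2 in blood and 4425 in the lung (1.10). The iron exporter Slc40a1, ferroportin, was lower, at 543 in blood and 59.2 in the lung (0.109, interval 0.0828 to 0.141). Sod2, the mitochondrial superoxide dismutase, stood at 17.4 CPM in healthy blood and 1405 in the lung, a ratio of 80.7 (55.9 to 121) and the thioredoxin reductase Txnrd1 at 18.6 in blood and 523 in the lung (28.1-fold). In the list of itaconate, arginine and polyamine metabolism 2 of 6 genes were higher. Irg1 (Acod1), which makes itaconate from an intermediate of the citric acid cycle, was at 32.4 CPM in healthy blood and 1960.4 in the lung, a ratio of 60.5 (46.1 to 80.8).

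Genes of glycolysis and hypoxia had 8 of 22 higher and 3 lower (Slc2a3, Pfkfb4 and Bnip3). The oxygen-regulated factor Hif1a was at 54.6 CPM in healthy blood and 700.0 in the lung, a ratio of 12.8 (10.3 to 16.1) and its inhibitor Egln3 at 18.0 in blood and 286 in the lung (15.8-fold). Pfkfb3, which drives glycolysis at the phosphofructokinase step, differed 12.9-fold and the glucose transporter Slc2a1 11.3-fold, while another transporter, Slc2a3, had a ratio of 0.462. Most enzymes of the pathway itself were within 2-fold, among them Gapdh (1.75), Ldha (1.03), Aldoa (0.727) and Tpi1 (0.548). Hilpda, a lipid droplet protein induced by hypoxia, had 57 UMIs against 1, a ratio of 90.6 (15.6 to 3642). Of 10 counted genes encoded by mitochondria 4 were just over 2-fold, all between 2.06 and 2.19, and none passed 2-fold on the plain scale.

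**Figure D2:**
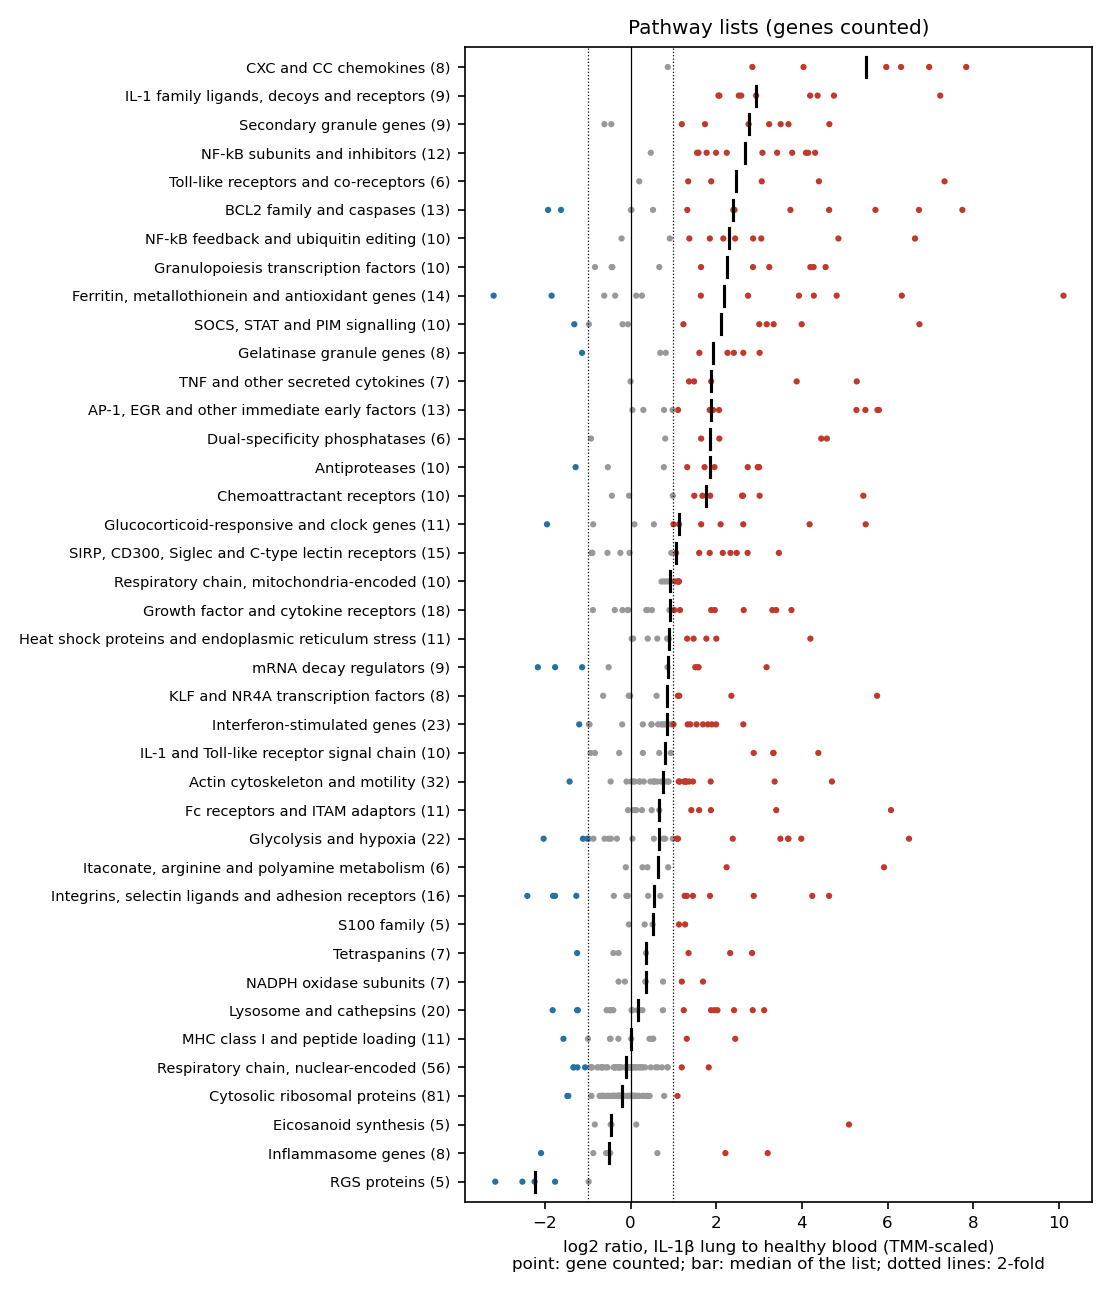
Log2 ratio of IL-1β lung to healthy blood (x axis, TMM-scaled) for the counted genes of each pathway list with at least 5 of them (rows, with the number counted); each point is a gene, the black bar the median of the list and the dotted lines 2-fold. Genes with no UMI in blood are not drawn as points but entered the medians at their lower bound. Chemokines lay farthest to the right with a median of at least 5.50, RGS proteins farthest to the left with -2.24, and ribosomal proteins clustered around -0.21.

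Granule genes, which are transcribed in order during maturation in the marrow, depended on the blood they were compared with. The primary granule list held 991 UMIs in the lung and 2706 in blood, but Mpo, Elane, Ctsg and Bpi had none in either. Its 1 counted gene, Lyz2, was lower in value but within 2-fold, with a log2 ratio of -0.78. Against runs 1 and 2 the ratio of Lyz2 was 0.184 and 0.341. Lyz2 was seen in 34.6% of thinned lung cells and 70.9% of thinned blood cells. Of 9 counted secondary granule genes 7 were at least 2-fold higher. Lcn2, the siderophore-binding lipocalin, stood at 549 CPM in healthy blood and 5167 in the lung, a ratio of 9.41 (8.78 to 10.1), and Ngp at 12.0 CPM in healthy blood and 299.8 in the lung, a ratio of 25.0 (15.9 to 41.4). Against the neutrophil-like cells of healthy blood in runs 1 and 2, where Ngp stood at 6709.9 and 1644, the lung ratio turned to 0.0485 and 0.179, whereas that of Lcn2 was 2.09 and 3.50. Cybb, the large subunit of the NADPH oxidase, differed 2.29-fold and 0.747-fold against run 1. Of 8 gelatinase granule genes 5 were higher and 1, Mmp9 itself, was lower, at 1634 in blood and 745 in the lung (0.456, interval 0.420 to 0.494), and its ratio was 0.576 and 0.521 against runs 1 and 2. Retnlg, a resistin-like secreted protein, was at 4598 CPM in healthy blood and 22077 in the lung, a ratio of 4.80 (4.68 to 4.93), but 1.43 and 1.23 against the other pools. Ly6g, the surface marker of the sort, was at 36.0 in blood and 223 in the lung (6.20, interval 4.65 to 8.38) and 0.645 against run 1. Of 5 S100 genes S100a8 and S100a9 were just over 2-fold, with ratios of 2.19 and 2.42, stood at 1.17 and 1.29 without TMM, and S100a8 turned to 0.713 and 0.780 against runs 1 and 2. Against arthritic blood of the same library both were below 1, at 0.941 and 0.924.

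Adhesion genes had 7 of 16 counted members higher and 4 lower. Plaur, the urokinase receptor, stood at 132 CPM in healthy blood and 3283 in the lung, a ratio of 24.9 (21.7 to 28.6), Icam1 at 12.6 in blood and 239 in the lung (18.9-fold) and Cd47, the ligand of the inhibitory receptor SIRPα, at 249.8 in blood and 1833 in the lung (7.34-fold). The integrin chains differed among themselves. Itga4 was at 295 in blood and 55.4 in the lung (0.188, interval 0.141 to 0.247), its possible partner Itgb7 had a ratio of 0.285 and Itgal of 0.415, whereas Itgb1 was 2.74-fold higher and Itgam was at 393 in blood and 636 in the lung (1.62). Tetraspanins had 3 of 7 higher, led by Cd9 at 387 in blood and 2763 in the lung (7.14-fold), and 1 lower.

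Among Fc receptors and their adaptors 5 of 11 were higher and none lower, and the inhibitory receptor Fcgr2b had by far the largest ratio, at 9.61 CPM in healthy blood and 650.3 in the lung, a ratio of 67.7 (41.4 to 119). Trem1, an amplifier of inflammatory signals, stood at 141 in blood and 1491 in the lung (10.6-fold), while the adaptor Tyrobp was at 5747 in blood and 6032 in the lung (1.05). Fcer1g was 3.03-fold higher, but 0.806 against run 2. Of 15 counted lectin-like and SIRP or CD300 receptors 8 were higher and none lower, and the C-type lectins Clec4e and Clec4d, which bind mycobacterial glycolipid, were at 2073 and 4000.1 in the lung against 188 and 602. Subunits of the NADPH oxidase were mostly within 2-fold, with 2 of 7 higher, among them Ncf4 (3.23, but 0.942 against run 2). Interferon-stimulated genes had 9 of 23 higher and 1 lower, of which 2 higher and the 1 lower passed 2-fold under all 3 scalings, and none of the higher also against both other healthy blood pools. The highest was Gbp2 (6.20), and Ifitm2 and Isg15 differed 3.99-fold and 3.72-fold, but 0.875 and 0.639 against run 2.

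Of 13 genes of the BCL2 family and caspases 8 were higher and 2 lower. The BCL2-related Bcl2a1b stood at 19.2 CPM in healthy blood and 2046 in the lung, a ratio of 106 (75.2 to 156) and Bcl2a1d at 2.40 and 517 (215, interval 83.5 to 792); the copies of this family are nearly identical, so that reads may have been split between them or lost. Bcl2l1, which encodes BCL-XL, was at 11.4 CPM in healthy blood and 284 in the lung, a ratio of 24.9 (15.6 to 41.9), and the more abundant Mcl1 at 1627 in blood and 4076 in the lung (2.50-fold). Cflar, an inhibitor of death receptor signals, differed 5.38-fold and Casp8 13.3-fold. The pro-apoptotic Bid and Pmaip1 were lower, with ratios of 0.263 and 0.324. Cdkn1a, the cell cycle inhibitor p21, went from 2 UMIs to 378, a ratio of 301 (82.6 to 2491). Of 8 inflammasome genes 2 were higher and 1 lower. Nlrp3 was 4.64-fold and Casp4 9.20-fold higher, whereas Gsdmd had a ratio of 0.547 and Padi4, which citrullinates histones, of 0.235 (0.168 to 0.322). Ptgs2, the inducible cyclooxygenase, stood at 15.6 CPM in healthy blood and 536 in the lung, a ratio of 34.3 (23.2 to 53.0), but no other eicosanoid gene passed 2-fold, and Alox5 and Alox5ap were at 0.733 and 1.10. Among antiproteases 7 of 10 were higher and 1 lower, and none was higher under all 3 scalings and against both other pools. The highest ratios included those of Wfdc17, Stfa2 and Serpinb1a, though the Stfa2 UMIs came from 4 of 380 lung cells, against 7 of 509 blood cells with a UMI; 4 of the 10 turned direction against run 1 or 2, among them Wfdc17 from 8.00 to 0.704 against run 2, and Stfa2 and Serpinb1a to 0.800 and 0.414 against run 1. Genes of the Stfa family are close copies as well.

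RGS proteins, which shorten signals from chemokine receptors by speeding the return of G proteins to rest, were the list with the lowest median, at -2.24, with 4 of 5 counted genes at least 2-fold lower and none higher. Rgs2 stood at 759 CPM in healthy blood and 132 in the lung, a ratio of 0.174 (0.145 to 0.207), Rgs14 at 85.9 in blood and 18.1 in the lung (0.211) and Rgs18 at 64.9 in blood and 19.1 in the lung (0.294). The fourth, Rgs3, had a ratio of 0.112 (0.0601 to 0.192) and of 0.0964 against run 2, but of 3.06 against run 1. Rgs2 was seen in 9.79% of thinned lung cells and 59.6% of blood cells. Rgs1, below the level for counting, had 17 UMIs in the lung and 1 in blood.

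Tsc22d3, a leucine zipper gene induced by glucocorticoids, was lower in the lung, at 798 CPM in healthy blood and 206 in the lung, a ratio of 0.258 (0.223 to 0.299), and at 0.399 and 0.191 against runs 1 and 2. Other genes of the same list were higher, 7 of 11 in all, among them Bhlhe40 (45.0-fold), Nfil3 (18.1-fold) and the clock gene Per1 (6.20-fold). Transcription factors of granulopoiesis had 6 of 10 higher and none lower. The most abundant was Cebpb, a factor of stress granulopoiesis and of the acute phase, at 761 CPM in healthy blood and 7184 in the lung, a ratio of 9.44 (8.90 to 10.0), and Id1, Id2 and Xbp1 differed 23.5, 19.3 and 18.4 times. Regulators of mRNA decay went both ways, with 4 higher and 3 lower of 9, and 1 higher and 3 lower under all 3 scalings. Zfp36l1 was at 97.3 in blood and 879 in the lung (9.03-fold), whereas its relative Zfp36l2 was at 583 in blood and 172 in the lung (0.295, interval 0.250 to 0.346), with 8.09 against run 1 and 0.364 against run 2.

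The genes with the lowest ratios over a mean of 100 CPM were mostly outside the lists. AI467606 stood at 298 CPM in healthy blood and 23.9 in the lung, a ratio of 0.0800 (0.0513 to 0.119) and Rassf3, a RAS-association domain protein, at 290.0 CPM in healthy blood and 30.6 in the lung, a ratio of 0.105 (0.0713 to 0.151). They were followed by Slc40a1 above, then Rnf144a (0.153), Hacd4 (0.165), Rgs2, Dck, which phosphorylates deoxycytidine (0.181), Myadm (0.184), Itga4, Ttc7 (0.201), Ccpg1 (0.208) and D1Ertd622e (0.209). None of these 12 genes turned direction against another blood pool, and the value closest to 1 was 0.757, for Itga4 against run 1. At the other end, of the 12 highest, Saa3, an acute phase serum amyloid, had 241 UMIs in the lung and 2 in blood (192, interval 52.5 to 1591) and was seen in 6 of 380 lung cells, Ffar2, a receptor for short-chain fatty acids, differed 80.9-fold (38.8 to 203), and 2010005H15Rik, a member of the stefin cluster, had 215 UMIs against 3 (114, interval 38.5 to 557), carried by 19 of 380 lung cells.

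Housekeeping lists stood near the middle. Of 81 counted ribosomal protein genes 1 was higher, 2 were lower and the median log2 ratio was -0.21; the higher 1, Rpl22l1, had a ratio of 2.14 and of 0.909 and 0.791 against runs 1 and 2. On the plain scale, which TMM adjusts, ribosomal proteins took 2.43% of lung UMIs and 4.87% of those of blood. Of 56 nuclear-encoded genes of the respiratory chain 2 were higher and 4 lower. Actin and motility genes had 11 of 32 higher and 1 lower, and 2 higher and 1 lower under all 3 scalings, with Marcksl1 (26.0, interval 22.1 to 30.8), Plek (10.3) and Actg1 (3.66) the largest and Tmsb4x, the main actin-sequestering peptide, at 22506 in blood and 16293 in the lung (0.724). The ratio of Actg1 depended on the pool, at 150 against run 1 and 1.91 against run 2. Lysosomal genes had 7 of 20 higher and 3 lower, with Ctsl at 8.69 and Ctsb at 4.08, but Ctsb at 1.54 against run 2. Of the higher genes 5 were so under all 3 scalings, and 3 against both other pools as well. Of 11 MHC class I genes 2 were higher and 1 lower, with a median log2 ratio of 0.01, and the immunoproteasome subunit Psmb9 was at 0.337 (0.227 to 0.488). All 3 counted genes of MHC class II and the PD-1 ligands were higher. Cd274, which encodes PD-L1, stood at 32.4 CPM in healthy blood and 323 in the lung, a ratio of 9.95 (7.45 to 13.5), Cd80 at 13.2 in blood and 198 in the lung and Cd74, the class II invariant chain, at 10.2 in blood and 184 in the lung. Heat shock and endoplasmic reticulum stress genes had 5 of 11 higher and none lower, 2 of them higher under all 3 scalings, the chaperone Hspa5 among them at 4.01.

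Per cell, some lists were shifted in most lung cells and others in fewer. The share of a cell's UMIs in chemokine genes had a median of 2.45% in the lung, with 0.522% at the 10th and 7.04% at the 90th percentile of cells, and 0.412%, 0.0965% and 0.874% in blood. Of 380 lung cells 313 lay above the 90th percentile of blood cells for chemokines, 340 for the IL-1 family and 358 for Toll-like receptors with Cd14. The count was 292 for granulopoiesis factors, 264 for NF-κB subunits and inhibitors, 252 for immediate early factors, 226 for lectin-like, SIRP and CD300 receptors, 211 for SOCS, STAT and PIM genes, 208 for MHC class II with PD-1 ligands, 200 for the BCL2 family and 193 for tetraspanins. It was lower for other lists, among them NF-κB feedback genes (178), chemoattractant receptors (175), secreted cytokines (153), secondary granule genes (130) and growth factor and cytokine receptors (24). For ferritin, metallothionein and antioxidant genes the count was 287, with a median of 5.07% of UMIs against 1.66%. RGS genes had a median of 0% in lung cells and 0.156% in blood cells, and 1 lung cell lay above the 90th percentile of blood. Some genes with large ratios had their lung UMIs in few of the 380 cells, among them Cxcl1 in 9, Mt2 in 10, Serpinb1a and Hilpda in 24, Il1a in 39, Dusp2 in 41 and Ngp in 49, and the counting intervals do not allow for such spread between cells. Cells of a condition share their pool and droplet run and are not replicates.

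**Figure D3:**
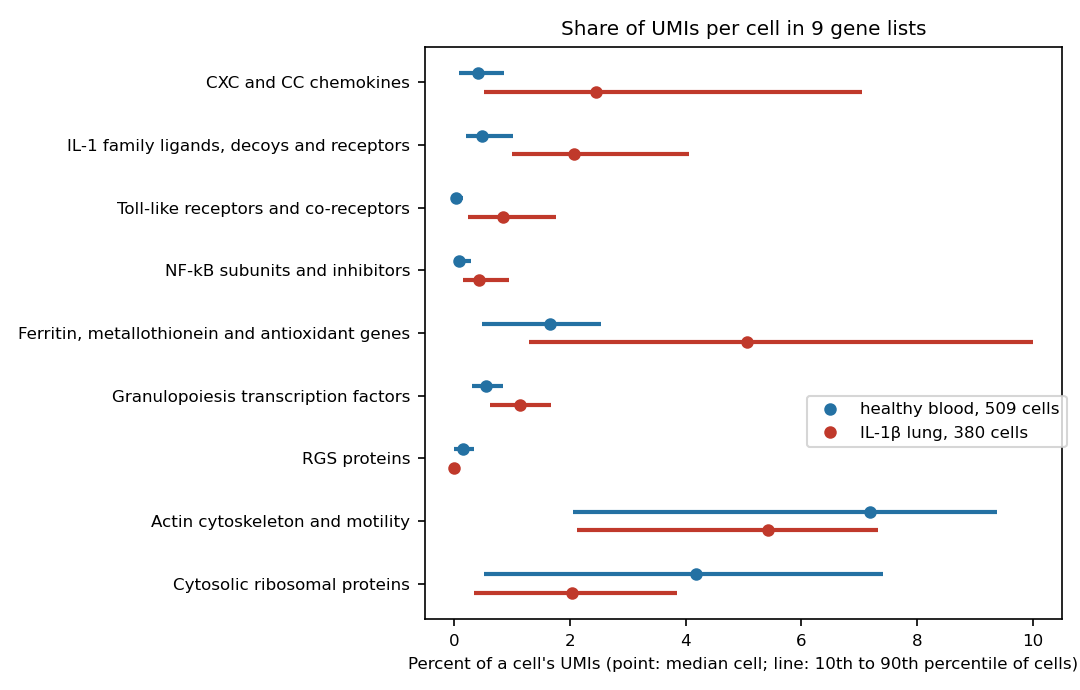
Percent of a cell's UMIs (x axis) that fell in 9 gene lists (rows), for 509 healthy blood cells in blue and 380 IL-1β lung cells in red; points are median cells and lines run from the 10th to the 90th percentile of cells. The lung line for Toll-like receptors with Cd14 began at 0.252%, above the end of the blood line at 0.154%, while the lines for granulopoiesis factors and for ferritin overlapped.

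The lung cells differed among themselves along the ImmGen classes, which were assigned from the same transcripts, so the values are descriptive. In unscaled CPM, Cxcl2 stood at 15430.3 in the 275 GN.Arth.SynF cells of the lung, 8751 in the 74 GN.Thio.PC cells, 4439 in the 13 GN.Bl cells and 1101 in the 16 GN.UrAc.PC cells, against 159 in the GN.Bl cells of blood. Cd14 followed the same order, from 9616 to 2438, with 79.7 in GN.Bl of blood. The 13 GN.Bl cells of the lung carried more Retnlg (43426 against 16290.5 in GN.Arth.SynF), Ngp (1144 against 115) and Ly6g (605 against 153) and less Il1b (4372 against 13328) and Ccl3 (26.9 against 2670.3). Even so, Il1r2 in these 13 cells was at 3659, close to the 4011 of GN.Arth.SynF and above the 247 of GN.Bl in blood, and Rgs2 at 67.3 against 1104 and Tsc22d3 at 94.2 against 1209.

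The peritoneum received the same dose for the same 3 hours, in another volume and into another site. The study's methods give anaesthesia before the dose for the lung and none for the peritoneum. Site, volume and anaesthesia therefore cannot be told apart. Among the named genes with the largest ratios between these sites, those higher in the lung were Mt1 (1327 against 60.6 CPM in the peritoneum, a ratio of 21.9 with an interval of 16.3 to 30.2), Per1 (216 against 25.6), Ctsl (146 against 17.5), Osm (864 against 119) and Cxcl3 (11677 against 1854, a ratio of 6.30). The lung also had more Id2 (511 against 86.2), Plaur (3283 against 703) and Il1r2 (4859 against 1465). Higher in the peritoneum were Nr4a1 (1149 against 91.7 in the lung, a lung to peritoneum ratio of 0.0798 with an interval of 0.0639 to 0.0986), Dusp2 (892 against 118), Klf2 (3320.2 against 616), Tnf (371 against 106) and Tnfaip3 (1353 against 486). Lcn2 (14929 against 5167) and Il1rn (10660 against 4139.6) were higher there as well. The joint, taken on day 7, held less of many of these, with Cxcl3 at 556, Il1rn at 1533, Nfkbia at 696 and Traf1 at 23.4. In arthritic blood Cxcl2 (157), Il1rn (198), Nfkbia (229) and Tsc22d3 (912) lay near healthy blood, whose values were 142, 201, 189 and 798.

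**Figure D4:**
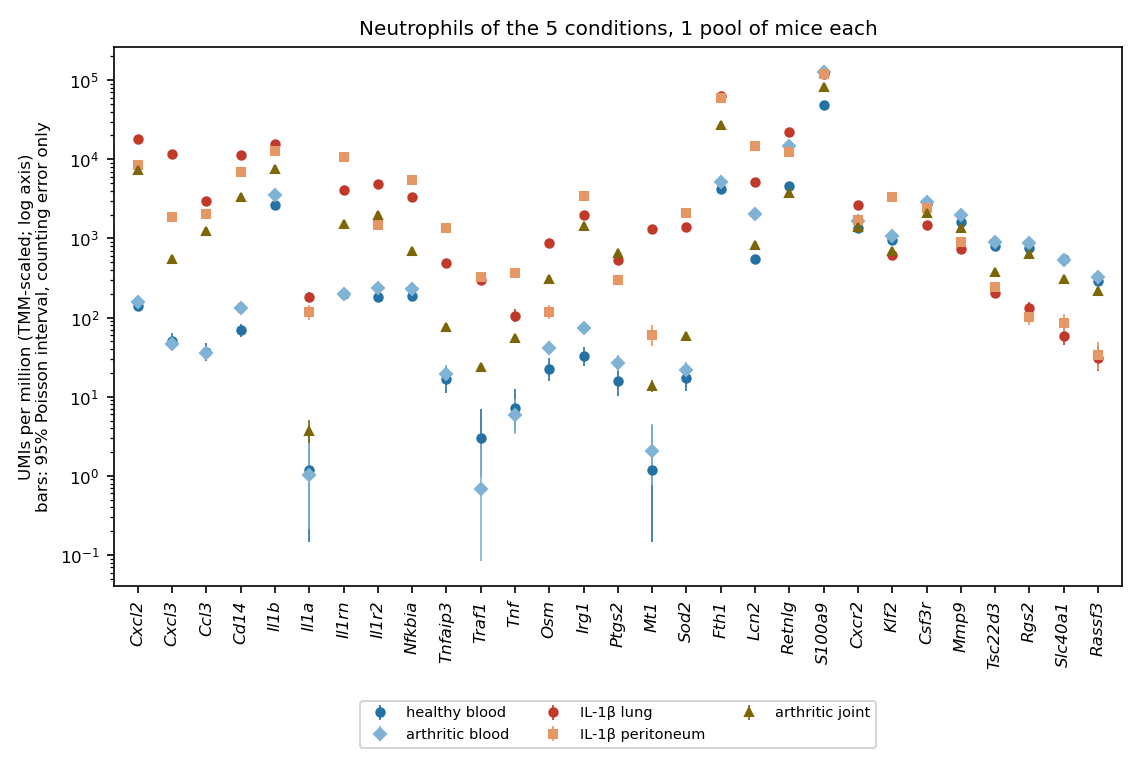
Levels of 29 named genes (x axis) in TMM-scaled CPM (log y axis) in neutrophils of the 5 conditions, 1 pool of mice each; points are levels and bars are 95% Poisson intervals for counting error. Healthy and arthritic blood lay close together for most genes, with arthritic blood higher for Lcn2, Retnlg and S100a9. The lung lay above the peritoneum for Mt1, Cxcl3 and Osm and below it for Tnf, Tnfaip3, Lcn2 and Klf2, and both lay below blood for Rgs2, Slc40a1 and Rassf3.

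A second check used the healthy blood of the 2 other runs, each a pool of its own, with 1391 neutrophil-like cells in run 1 and 3747 in run 2. These libraries were made with an earlier version of the reagents, so that pool, chemistry and run cannot be told apart, and 1 barcode was shared between run 1 and the inflammation library and none with run 2. Of the 928 and 475 genes, 612 and 267 were at least 2-fold different in the same direction from all 3 healthy blood pools under TMM, and 378 and 267 were so under all 3 scalings besides. Genes not listed in run 1 could not pass, and these were 67 of the higher and 4 of the lower genes, among them Mt1, Cxcl2, Cxcl3, Cish, Egr1, Irg1 and Saa3. For 111 of the 928 and 475 2-fold different genes the direction turned against run 1 or run 2. Of the lists above, chemokines, the IL-1 family, both NF-κB lists and the BCL2 family had no gene at least 2-fold different that turned where the other runs gave a ratio, though Ccl6, within 2-fold, stood at 1.83 and at 0.908 against run 2. Secondary granule genes had 3 such turns among 9 counted genes, antiproteases 4 of 10 and interferon-stimulated genes 4 of 23.

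**Figure D5:**
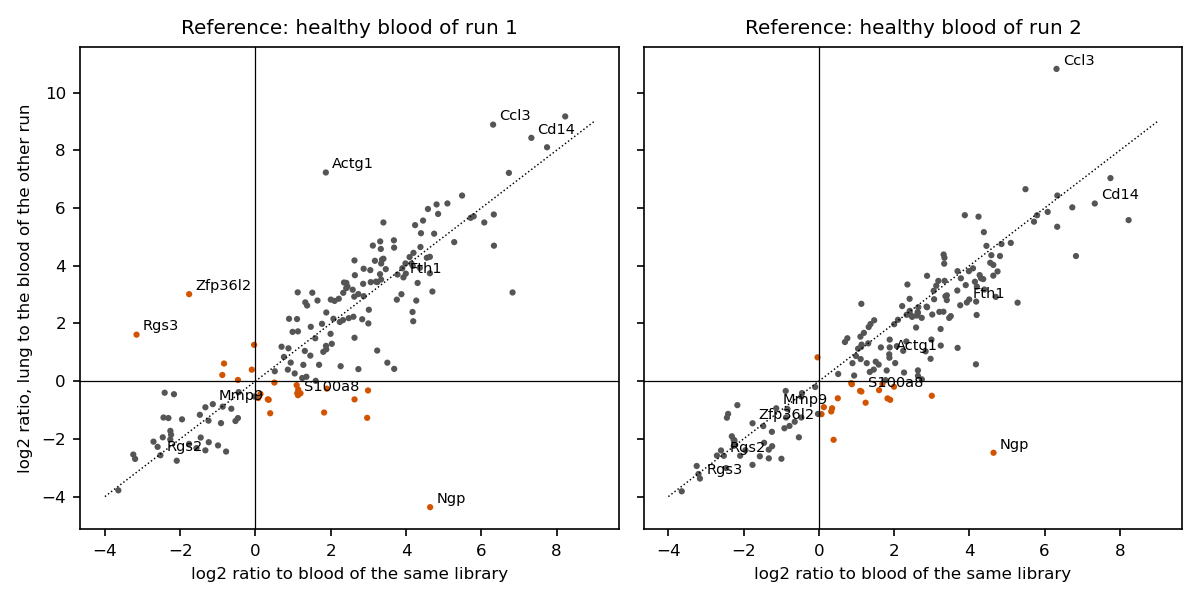
Log2 ratio of IL-1β lung to the healthy blood of the same library (x axis) and to the healthy blood of run 1 (left) or run 2 (right) on the y axis, for the 180 named genes with a ratio to all 3 pools. Points in orange have opposite signs on the axes. Cd14, Fth1, Rgs2 and Mmp9 kept their sign in both panels, Ngp turned in both, and Zfp36l2 and Rgs3 turned against run 1 alone.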

How the data were processed

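UMI counts per gene and cell were deposited by the authors as tables of raw whole numbers, made with Cell Ranger against the mm10 mouse genome per the labels and the study's methods. The authors removed hashtag doublets and cells without a hashtag; pairs of cells of 1 condition carry a single hashtag and could not be found. The table of cells gave each cell's condition and ImmGen class. All 5 conditions shared 1 droplet run.

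UMIs were summed over the GN cells of each condition and scaled by TMM over the 5 conditions (edgeR 4.0.16). A ratio has the exact conditional 95% interval for a ratio of Poisson counts, and gives counting error only, since UMIs cannot measure the spread between mice. Where blood had no UMI a floor of 3 counts gave a lower bound. Genes were counted at a mean of 25 CPM and called at 2-fold. Shares of cells were given on cells thinned to 1000 UMIs. With 1 pool of 3 mice per condition no test, p-value or replicate check could be made. The count and call steps were tested on simulated data.

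Neutrophil-like cells of the healthy blood of runs 1 and 2 (1588 and 4653 cells deposited) came from Leiden clusters (scanpy 1.11.5, resolution 2, 30 components of 2000 variable genes, 15 neighbours) whose cells held neutrophil markers more often than those of any other list, with at least 3 of them in 10% of cells; those cells were not doublet-filtered here, and run 1 listed 7578 genes. A difference from the study may come from these rebuilt names.

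Genes named in the text were the 12 with the highest and the 12 with the lowest ratio over a mean of 100 CPM, up to 4 with the ratio farthest from 1 and the most abundant in each list, and genes written down by name; a few others are named to account for a count. The members, the lists and these rules were chosen with earlier results of these data known. Alternatives were other scalings, filters, cell sets (among them the study's limits of at most 5% mitochondrial UMIs and the outer 1% of gene numbers left out at each end) and blood references; UMIs per cell and the set without secretoglobin-positive cells were added after the data were seen. The 4 libraries of bone marrow and spleen were not used here.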

Additional observations from a re-analysis of the deposited data

How the results depend on the processing

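Each condition was 1 pool, so leaving out a replicate was not possible. No paired analysis was possible because each condition was 1 pool of mice with no replicate number. The numbers of genes higher and lower, 928 and 475, stayed within 1.5 times under relative log expression factors, UMIs per cell, equal weight of cells, thinning to 1000 UMIs, the study's limits on cells, leaving out ribosomal and mitochondrial genes, leaving out cells with a secretoglobin UMI, and arthritic or run 1 blood as reference. They became 449 and 1575 on the plain scale, 488 and 106 with a minimum of 100 CPM, and 1770 and 2040 with no minimum, settings that move every ratio or the genes counted; run 2 as reference gave 819 lower. Among named genes at least 2-fold different, direction changed only with another blood; ratios within 2-fold also crossed 1 elsewhere, such as Gapdh (0.938) and Fos (0.920) on the plain scale. Against run 1 the 2-fold different genes that turned were Chil3 (0.0974), Ly6c2 (0.604), Klf10 (0.818), Zfp36l2 (8.09), Ngp (0.0485), Ly6g (0.645), S100a8 (0.713), Cybb (0.747), Isg15 (0.835), Stfa2 (0.800), Serpinb1a (0.414), Rgs3 (3.06), Rpl22l1 (0.909), Uqcrb (0.471) and mt-Nd1 (0.747). Against run 2 they were Chil3 (0.369), Ngp (0.179), S100a8 (0.780), Fcer1g (0.806), Ncf4 (0.942), Ifitm2 (0.875), Isg15 (0.639), Wfdc17 (0.704), Atp6v1g1 (0.596), Rpl22l1 (0.791) and Uqcrb (0.661), and against arthritic blood they included S100a9 (0.924), S100a8 (0.941) and Stfa1 (0.544). The cause was not tested. Shares of cells with a UMI moved with depth. Unthinned, Cxcl2, Cxcl3 and Cd14 were seen in 93.7%, 83.7% and 93.7% of lung and 35.6%, 14.1% and 19.8% of blood cells, Il1rn and Il1r2 in 38.5% and 39.1% of blood cells, and Tsc22d3 and Rgs2 in 34.7% and 23.4% of lung and 73.9% and 79.0% of blood cells. Thinned to 500 UMIs, lung shares were 82.6% (Cxcl2), 71.3% (Cxcl3), 87.4% (Cd14), 65.8% (Il1rn), 70.3% (Il1r2), 7.63% (Tsc22d3) and 4.47% (Rgs2), and blood shares 15.1% (Il1rn), 12.8% (Il1r2), 41.1% (Tsc22d3) and 41.8% (Rgs2). Depth limits most the ratios of genes with few UMIs in blood, such as Hilpda with 1.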
